A study of Homo sapiens with 9 samples.

Results

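The 9 protein-coding genes described here were all lower with both NFATC2 shRNAs than with the control shRNA in THP-1 cells. They are TSN, EEF1AKMT4, MSRB1, COMTD1, PSTPIP1, HSH2D, PRR7, SPNS3 and TMEM92, 9 of the 58735 genes in the count table and 9 of the 14975 genes with enough counts to be tested. They were chosen because they fell with both shRNAs and belong to no shared gene family, so their values against control describe the choice. The adjusted p-values of those contrasts are printed only to show where the genes lay beside a threshold of 0.05 in the fit used here. The choice did not name that threshold, and nothing is supported with these p-values. THP-1 is a human acute myeloid leukaemia cell line of monocytic character that carries the MLL-AF9 fusion. The cells received lentivirus, made in 293T cells, that encoded shRNA-143 or shRNA-146 against NFATC2 or a non-targeting control shRNA. Puromycin selected the transduced cells from 24 hours, and RNA was taken at 48 hours after spinoculation, the step in which virus is spun onto the cells. Each of the 3 groups held 3 libraries of polyadenylated RNA, numbered replicate 1 to 3. All groups were virus-treated and puromycin-selected, and the cells are from a single line.

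NFATC2 is a transcription factor that waits in the cytoplasm in a phosphorylated form. When calcium rises, the phosphatase calcineurin strips the phosphates, and the protein enters the nucleus and binds DNA at sites with the core GGAAA, often beside AP-1. In lymphoid cells it drives cytokine genes, and in myeloid cells it takes part in calcium-dependent responses to pattern recognition. The 9 genes fall outside a single pathway. A pair acts on RNA and the translation machinery, and another pair are a reductase and a protein with a methyltransferase domain. The rest are 3 adaptors of immune cells and a pair of membrane proteins.

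Library totals ran from 40047459 to 44669709 counts, and between 18485 and 21723 genes had a count. NFATC2 itself held 1.49, 7.40 and 6.95 CPM (counts scaled by library size after TMM normalization) in replicates 1 to 3 with shRNA-143, 2.59, 6.71 and 9.43 with shRNA-146, and 12.7, 27.6 and 27.4 in control. Every shRNA library was below every control library, and replicate 1 was the lowest of each group. The log2 fold change of NFATC2 was -2.27 ± 0.24 with shRNA-143 and -1.96 ± 0.23 with shRNA-146 (± SE, with the replicate number in the fit as a block). These passed by edgeR's quasi-likelihood test (adjusted p = 0.00168 with shRNA-143 and 0.00435 with shRNA-146), and did not without the block (0.497 and 0.464). All 12 myeloid leukaemia markers, KMT2A and MLLT3 among them, passed the filter, and their summed level was 1237 to 1670 CPM with shRNA-143, 1005 to 1907 with shRNA-146 and 1308 to 1572 in control. CD3D, CD3E and CD2 of T cells, MS4A1 of B cells, ALAS2 of erythroid cells, and KRT19 and NEFL of epithelial or virus-producing cells were at 0 in all 9 libraries. The 5 B cell markers summed to 29.1 to 42.3, 25.8 to 46.0 and 25.2 to 31.2 CPM in the same order of groups. The 7 epithelial or producer-cell markers, of which 1 passed the filter, summed to 3.44 to 3.85 CPM with shRNA-143, 2.21 to 2.78 with shRNA-146 and 3.99 to 4.87 in control, so these sums moved with the groups. Their part in the results was not tested.

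Libraries with the same replicate number resembled each other in their deviations, so results are given with the replicate number as a block. At replicate 3, however, the libraries of both shRNAs resembled control replicate 2 more than control replicate 3. For the contrasts between shRNA groups and control, and between the constructs, the fit planned as the main one had no block. Its values stand beside those with the block where the call differs. In the control libraries the 9 genes spanned a wide range of abundance per length. The deposited FPKM (fragment counts scaled by exon length and library size) averaged 101 for MSRB1 and 59.4 for TSN, then 12.3 for EEF1AKMT4, 6.54 for COMTD1, 5.44 for SPNS3, 3.29 for PRR7, 2.81 for PSTPIP1, 2.02 for HSH2D and 1.95 for TMEM92. The lowest count of any of the 9 in a library was 62, for HSH2D. In bulk RNA, fewer cells that express a gene and less of its RNA per cell cannot be told apart, which holds for every value that follows.

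Promoter letters are shown for 4 of the 9 genes because they carry a shared hexamer. The RefSeq promoter table (GRCh38.p14), which covers 250 bases before to 50 after a transcription start, matched 6 of the genes with 9 windows: COMTD1, TSN, MSRB1 and EEF1AKMT4 with 1 each, PSTPIP1 with 2 and PRR7 with 3. HSH2D, SPNS3 and TMEM92 are named only. A set of 6 motifs was searched on both strands: the NFAT core GGAAA, the E-box CACGTG, the AP-1 site TGANTCA, the GC box GGGCGG, the CCAAT box CCAAT and the TATA box TATAAA. A base could count for more than 1 of them. The motif set was settled after the promoter letters had been seen. The lines below give 260 bases each, 5′ to 3′ on the gene's strand, ending 10 bases after the start, with CACGTG in capitals. The windows lie at chr10:75235948-75236207 on the minus strand (COMTD1), chr2:121755401-121755660 on the plus strand (TSN), chr5:177447175-177447434 on the plus strand (PRR7, its second window) and chr3:184249422-184249681 on the plus strand (EEF1AKMT4).
COMTD1: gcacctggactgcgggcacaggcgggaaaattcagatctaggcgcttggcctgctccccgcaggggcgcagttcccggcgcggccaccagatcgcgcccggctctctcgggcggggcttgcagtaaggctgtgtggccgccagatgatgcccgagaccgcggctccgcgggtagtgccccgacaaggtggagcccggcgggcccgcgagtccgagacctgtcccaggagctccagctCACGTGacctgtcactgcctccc
TSN: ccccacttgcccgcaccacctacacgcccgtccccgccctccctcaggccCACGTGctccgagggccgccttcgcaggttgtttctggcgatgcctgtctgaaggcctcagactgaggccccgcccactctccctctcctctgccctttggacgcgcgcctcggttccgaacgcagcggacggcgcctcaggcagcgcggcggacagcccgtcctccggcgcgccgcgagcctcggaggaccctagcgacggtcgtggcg
PRR7: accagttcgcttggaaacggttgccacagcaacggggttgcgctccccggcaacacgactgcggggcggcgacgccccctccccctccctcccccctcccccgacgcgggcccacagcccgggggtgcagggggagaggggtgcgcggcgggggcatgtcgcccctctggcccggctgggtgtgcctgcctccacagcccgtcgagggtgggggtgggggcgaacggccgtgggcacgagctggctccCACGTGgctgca
EEF1AKMT4: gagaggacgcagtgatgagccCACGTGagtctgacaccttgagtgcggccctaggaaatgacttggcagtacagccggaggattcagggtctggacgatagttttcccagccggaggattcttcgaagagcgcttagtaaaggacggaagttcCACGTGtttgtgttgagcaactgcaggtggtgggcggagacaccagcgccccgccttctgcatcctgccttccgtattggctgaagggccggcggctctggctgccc
CACGTG, which is its own reverse complement and is bound by bHLH factors such as MYC and USF, was found in 4 of the 6 genes and in 4 of the 9 windows. Of all 35116 RefSeq windows, 7.256% held it, and across the 17995 windows within the GC range of the 9 (56.7% to 78.3%) 9.86% did. Its first base lay at position -13 in COMTD1, -200 in TSN, -2 in PRR7, and at -229 and -97 in EEF1AKMT4, counted from 0 at the start. The NFAT core, read as GGAAA or TTTCC, was present in COMTD1, PSTPIP1, PRR7 and EEF1AKMT4, which is 4 of 6 genes and 5 of 9 windows, beside 61.21% of all windows and 54.6% of those in the GC range. The GC box was in 5 of the 6 genes and 5 of the 9 windows (44.95% of all windows and 70.4% in the GC range). The CCAAT box was in 3 genes and 3 of the 9 windows (34.61% and 31.4%). The AP-1 site was in 1 gene, PRR7, and 1 of the 9 windows (7.709% and 4.11%), and the TATA box in 0 of either (11.53% and 3.42%). A match describes letters only, and a gene with several windows had several chances to hold one.

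**Figure D1:**
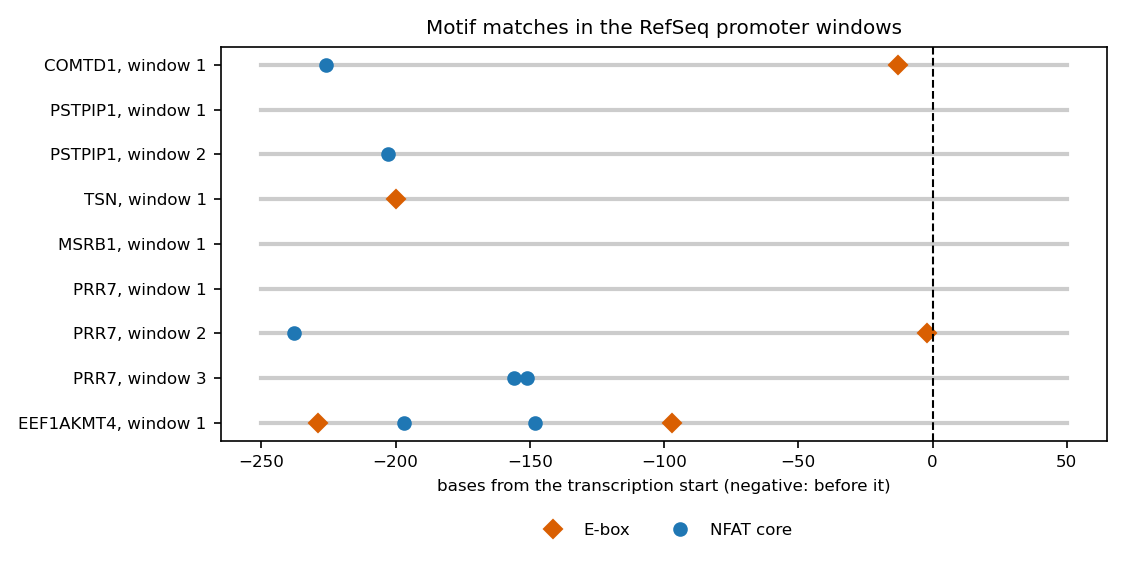
Positions of the E-box CACGTG (diamonds) and the NFAT core GGAAA or TTTCC (circles) in the 9 RefSeq promoter windows of 6 of the genes, on an axis of bases from the transcription start. E-boxes lie in 4 windows, at -2 in the second PRR7 window and -13 in COMTD1, and NFAT cores in 5.

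TSN and EEF1AKMT4 act on RNA and on the translation machinery. TSN (ENSG00000211460, chromosome 2, 121737103 to 121767853, plus strand, hg38) encodes translin, a nucleic acid binding protein that pairs with TSNAX in C3PO, the nuclease that helps load Argonaute and trims transfer RNA. TSN stood at 163, 113 and 115 CPM in replicates 1 to 3 with shRNA-143, 209, 132 and 116 with shRNA-146, and 308, 226 and 267 in control. The highest shRNA-146 library stayed below the lowest control library, and replicate 1 was the highest of each group. TSN averaged 130 ± 28.4 CPM with shRNA-143, 152 ± 49.95 with shRNA-146 and 267 ± 41.1 in control (SD, n = 3 each), and its log2 fold changes were -1.05 ± 0.14 and -0.84 ± 0.14 for shRNA-143 and shRNA-146 (± SE, as for all that follow).

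EEF1AKMT4 (ENSG00000284753, chromosome 3, 184249650 to 184259585, plus strand) encodes a lysine methyltransferase of the elongation factor eEF1A. It held 16.5, 10.03 and 11.4 CPM with shRNA-143, 13.4, 11.4 and 13.2 with shRNA-146, and 25.0, 19.3 and 24.0 in control. Both shRNA groups lay wholly below control, with replicate 1 of shRNA-143 the nearest to it. The means were 12.6 ± 3.38, 12.7 ± 1.09 and 22.8 ± 3.05 CPM in that order, and the log2 fold changes -0.87 ± 0.16 with shRNA-143 and -0.84 ± 0.16 with shRNA-146. Its exons share 373 bases (20.5%) with CAMK2N2 on the opposite strand and 480 bases (26.3%) with the readthrough gene EEF1AKMT4-ECE2 on the same strand. CAMK2N2 held 11 to 46 counts per library and the readthrough gene 0 in all 9. The strand setting of the counting was not given, and strand cannot separate EEF1AKMT4 from the readthrough gene. Counts in the shared exons are therefore uncertain, and the 0 does not show that the readthrough RNA was absent.

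MSRB1 and COMTD1 are enzymes. MSRB1 (ENSG00000198736, chromosome 16, 1938210 to 1943326, minus strand) is a selenoprotein that reduces methionine-R-sulfoxide and reverses the oxidation of actin by MICAL enzymes. MSRB1 stood at 158, 112 and 102 CPM with shRNA-143, 135, 124 and 103 with shRNA-146, and 263, 181 and 225 in control. All 6 shRNA libraries were below the lowest control library, replicate 2, and replicate 1 was the highest of each group. The means were 124 ± 29.9 CPM with shRNA-143, 121 ± 15.8 with shRNA-146 and 223 ± 41.4 in control, and the log2 fold changes -0.86 ± 0.14 and -0.88 ± 0.14.

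COMTD1 (ENSG00000165644, chromosome 10, 75233969 to 75236030, minus strand) encodes a protein with a methyltransferase domain. COMTD1 held 4.23, 4.37 and 4.94 CPM with shRNA-143, 2.61, 5.37 and 4.75 with shRNA-146, and 8.08, 10.2 and 13.4 in control. The groups did not overlap with control, and replicate 1 was the lowest library of each group. COMTD1 averaged 4.51 ± 0.374, 4.24 ± 1.45 and 10.6 ± 2.69 CPM, with log2 fold changes of -1.20 ± 0.21 for shRNA-143 and -1.33 ± 0.21 for shRNA-146.

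PSTPIP1, HSH2D and PRR7 are adaptors of immune cells. PSTPIP1 (ENSG00000140368, chromosome 15, 76993359 to 77037332, plus strand) is an F-BAR protein of the cytoskeleton that binds pyrin and PEST-type tyrosine phosphatases, and its variants cause an inherited autoinflammatory disease. It stood at 5.56, 5.24 and 6.66 CPM with shRNA-143, 4.49, 6.38 and 7.84 with shRNA-146, and 13.4, 11.2 and 13.7 in control. No shRNA library reached the lowest control library, and the spread was wider with shRNA-146 than with shRNA-143. PSTPIP1 averaged 5.82 ± 0.745, 6.24 ± 1.68 and 12.8 ± 1.36 CPM, and the log2 fold changes were -1.14 ± 0.19 with shRNA-143 and -1.05 ± 0.19 with shRNA-146.

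HSH2D (ENSG00000196684, chromosome 19, 16134028 to 16158575, plus strand) is a haematopoietic adaptor with an SH2 domain, the module that binds phosphotyrosine. HSH2D held 2.69, 3.15 and 3.32 CPM with shRNA-143, 1.57, 2.13 and 3.60 with shRNA-146, and 6.11, 7.22 and 7.65 in control. Replicate 1 was the lowest of each group, and both shRNA groups lay below control. Its means were 3.05 ± 0.325, 2.43 ± 1.04 and 6.99 ± 0.792 CPM, with log2 fold changes of -1.20 ± 0.22 and -1.57 ± 0.22. HSH2D shares 207 exonic bases (6.1%) with RAB8A on the same strand, and RAB8A was not called with either shRNA (log2 fold changes 0.20 with shRNA-143 and 0.30 with shRNA-146).

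PRR7 (ENSG00000131188, chromosome 5, 177446445 to 177456286, plus strand) is a proline-rich transmembrane adaptor known from T cells and from synapses. It held 2.72, 2.45 and 2.14 CPM with shRNA-143, 2.31, 2.21 and 2.03 with shRNA-146, and 5.20, 5.70 and 6.94 in control. The 6 shRNA libraries lay close together and well below the 3 control libraries. PRR7 averaged 2.43 ± 0.288, 2.18 ± 0.143 and 5.95 ± 0.897 CPM, and its log2 fold changes were -1.29 ± 0.21 with shRNA-143 and -1.45 ± 0.21 with shRNA-146.

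SPNS3 and TMEM92 are membrane proteins. SPNS3 (ENSG00000182557, chromosome 17, 4433688 to 4488208, plus strand) belongs to the spinster family, whose member SPNS2 exports sphingosine-1-phosphate. SPNS3 stood at 7.59, 8.48 and 7.14 CPM with shRNA-143, 4.26, 6.30 and 5.56 with shRNA-146, and 12.7, 14.2 and 17.8 in control. The 3 groups did not overlap, with shRNA-146 lowest and shRNA-143 between it and control. The means were 7.74 ± 0.678, 5.37 ± 1.03 and 14.9 ± 2.65 CPM, and the log2 fold changes -0.94 ± 0.18 with shRNA-143 and -1.48 ± 0.18 with shRNA-146. SPNS3 shares 99 exonic bases (3.7%) with the antisense gene AC127521.1, which held 0 to 5 counts.

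TMEM92 (ENSG00000167105, chromosome 17, 50271406 to 50281485, plus strand) held 3.15, 2.20 and 1.90 CPM with shRNA-143, 2.54, 2.44 and 2.24 with shRNA-146, and 6.14, 5.63 and 6.72 in control. Every shRNA library was below every control library. TMEM92 averaged 2.42 ± 0.655, 2.41 ± 0.154 and 6.16 ± 0.546 CPM, with log2 fold changes of -1.37 ± 0.22 and -1.36 ± 0.21.

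**Figure D2:**
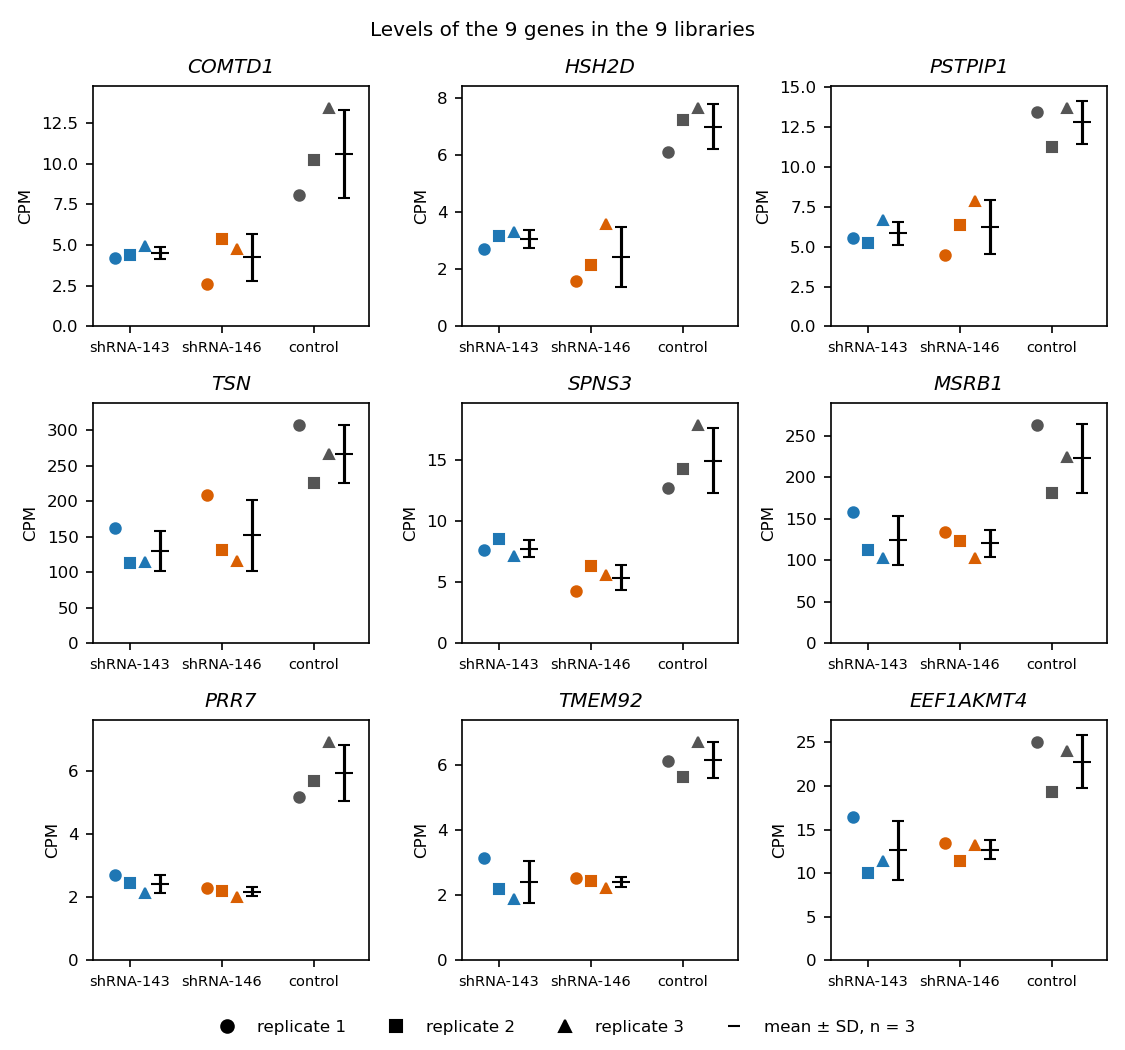
CPM of the 9 genes in the 9 libraries, 1 panel per gene on its own linear axis from 0, with replicates marked by shape and the mean ± SD (n = 3) beside each group. In every panel the shRNA-143 and shRNA-146 libraries sit below all 3 control libraries.

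All 9 genes had every shRNA-143 library and every shRNA-146 library below every control library. Over all tested genes this held for 8.11% with shRNA-143, 7.46% with shRNA-146 and 2.77% with both. The choice of the genes used these contrasts, so nothing is read from the difference. The median log2 fold change of the 9 was -1.14 with shRNA-143 and -1.33 with shRNA-146, beside 0.00 and 0.02 over all genes tested.

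With the block, 51 genes were lower with both shRNAs at an adjusted p under 0.05, which is 0.341% of those tested. With shRNA-143 alone 3.17% of genes were called and 1.57% were called lower, and with shRNA-146 alone 4.42% and 1.96%. The 9 genes stood at ranks 3 to 14 of the 51 when ordered by the larger of their pair of adjusted p-values, which ran from 0.00987 for TMEM92 to 0.0229 for SPNS3. Just inside the threshold were CCDC43, with log2 fold changes of -0.76 and -0.58 (larger adjusted p = 0.0484), and MARCKSL1, with -1.12 and -0.61 (0.0492). Just outside were PCED1B-AS1, with -0.63 and -0.99 (0.0501), and TUBA4A, with -0.87 and -0.65 (0.0506). Without the block 0 genes (0%) were called lower with both by edgeR's quasi-likelihood test, where 0.0467% of genes were called with shRNA-143 and 0.0334% with shRNA-146, against 6.8% and 8.81% at an unadjusted p under 0.05, and DESeq2 without the block called 11 genes (0.0735%) lower with both, 6 of the 9 among them. The 9 were chosen on these contrasts, so nothing is read from their ranks or from how many of them were called, here or in the authors' deposited table. In the authors' deposited table, where 139 of 23828 genes had an adjusted p under 0.05 for shRNA-143, 7 of the 9 did, all but MSRB1 (0.170) and EEF1AKMT4 (0.173). For shRNA-146 the authors' deposited table had 60 of 23854 genes and 4 of the 9, HSH2D (0.0278), SPNS3 (0.00267), PRR7 (0.00299) and TMEM92 (0.00366), and those 4 passed in both.

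The number of genes called lower with both shRNAs, at an adjusted p under 0.05, depended on which libraries were in the fit. These numbers describe the call, which the choice of the 9 did not name, and test nothing. With the block the call was met by 51 of all genes, and by 18, 4 and 4 without shRNA-143 replicates 1, 2 and 3, with 6, 1 and 1 of the 9 among them. Without shRNA-146 replicates 1, 2 and 3 it was met by 302, 17 and 42 genes, with 9, 8 and 9 of the 9 among them. Without control replicates 1, 2 and 3 it was met by 7, 2 and 2 genes, with 3, 0 and 0 of the 9 among them.

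Set against the control library of the same replicate number, the 9 genes spanned 28.3% to 65.7% in the shRNA-143 libraries and 25.7% to 68.4% in the shRNA-146 libraries. HSH2D was the most even with shRNA-143, at 44.0%, 43.6% and 43.4% in replicates 1 to 3, but stood at 25.7%, 29.5% and 47.0% with shRNA-146. PRR7 stood at 52.3%, 42.9% and 30.9% in the shRNA-143 libraries, and at 44.4%, 38.8% and 29.2% in those of shRNA-146. Thus replicate 3 was the lowest for PRR7 with both shRNAs. TMEM92 had its lowest ratio there too, 28.3% with shRNA-143 and 33.3% with shRNA-146. TSN had its lowest ratios there as well, 43.0% and 43.5%, whereas its highest were in replicate 1, 52.9% with shRNA-143 and 68.0% with shRNA-146. The ratios of both shRNAs at a replicate number share 1 control library, so their likeness is not independent. The replicate 3 libraries of both shRNAs resembled control replicate 2 more, so the use of control replicate 3 for them rests on its label. Control replicate 3 was the highest control library for PRR7 (6.94 CPM) and TMEM92 (6.72 CPM), and control replicate 1 for TSN (308 CPM).

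**Figure D3:**
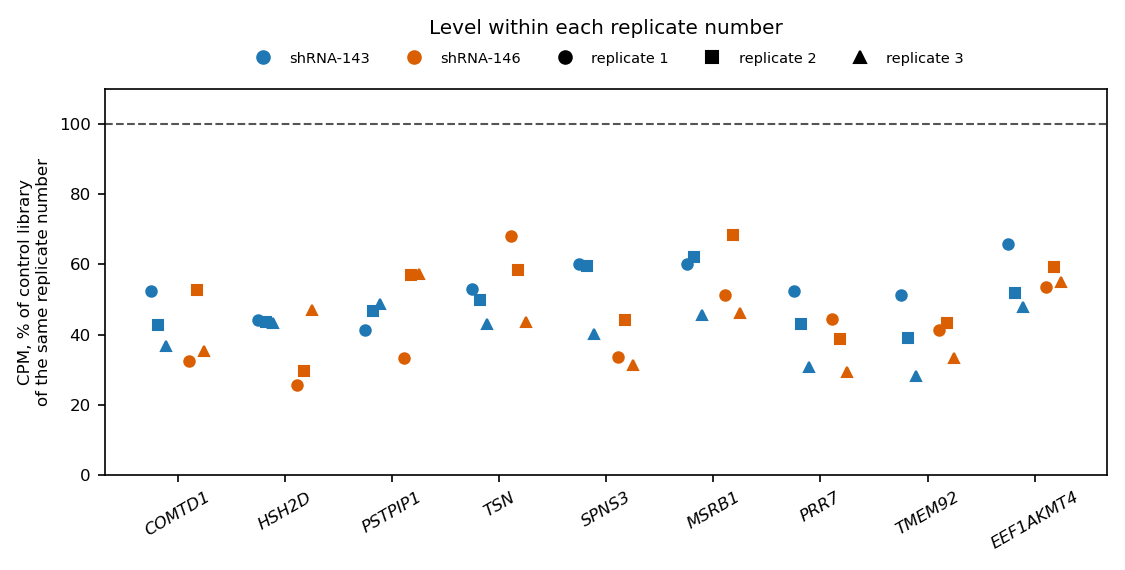
CPM of each gene as a percent of the control library with the same replicate number, on a linear axis from 0, with shRNA-143 left of shRNA-146 and replicates marked by shape; the dashed line is 100%. All points lie below the line, between 25.7% and 68.4%.

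The difference between the constructs did not enter the choice, although a gene that moved with only 1 of them could not have been chosen. Only SPNS3 had all shRNA-146 libraries below all shRNA-143 libraries, a pattern found in 3.69% of all genes, and 0 of the 9 had the opposite order (4.49% of all genes). For SPNS3 shRNA-146 minus shRNA-143 was -0.54 ± 0.18 on the log2 scale, with a 95% interval of -0.94 to -0.14 that is not adjusted for the number of genes. It did not pass over all genes (adjusted p = 0.274 by edgeR's quasi-likelihood test), nor did any other of the 9, while 1.2% of all genes did. Without the block 0.0467% of all genes passed and 0 of the 9. HSH2D followed at -0.38 (interval -0.87 to 0.12) and TSN at 0.21 (-0.10 to 0.52). Without the block the HSH2D difference was -0.33, and it ran to -0.72 without shRNA-146 replicate 3 and to -0.0944 without shRNA-146 replicate 1.

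For the others the estimates were nearer to 0 but the intervals stayed wide. COMTD1 had -0.13 (-0.60 to 0.34), PRR7 -0.16 (-0.63 to 0.31), PSTPIP1 0.09 (-0.33 to 0.51) and TMEM92 0.01 (-0.47 to 0.49). The better counted MSRB1 had -0.02 (-0.34 to 0.29) and EEF1AKMT4 0.03 (-0.31 to 0.37). The adjusted p-values of these 9 differences ran from 0.274 to 0.990. A p that misses the threshold does not show that the constructs acted alike on these genes.

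The replicate number gave a second comparison that the choice did not use. Over all genes, replicate 1 differed from replicates 2 and 3 at an adjusted p under 0.05 in 49.6%, with 25.6% lower and 24% higher in replicate 1. TSN was 0.54 ± 0.12 higher in replicate 1 on the log2 scale (adjusted p = 0.0037) and MSRB1 0.40 ± 0.12 higher (adjusted p = 0.0193), while COMTD1 was lower there, at -0.53 ± 0.19 (adjusted p = 0.0351). These were the 3 of 9 that passed. NFATC2 was lower in replicate 1 as well, at -1.61 ± 0.22 (adjusted p = 0.000253).

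The remaining genes did not pass. EEF1AKMT4 had 0.33 (adjusted p = 0.0614), HSH2D -0.44 (0.0797), SPNS3 -0.28 (0.159), TMEM92 0.24 (0.297), PSTPIP1 -0.19 (0.362) and PRR7 0.02 (0.928). TSN, MSRB1 and EEF1AKMT4 were highest in replicate 1 in all 3 groups (3 of 9, against 25.9% of all genes), and COMTD1 and HSH2D were lowest there in all 3 (2 of 9, against 28.5%). The TSN call held without each library in turn. The COMTD1 call was lost without shRNA-146 replicate 1 (adjusted p = 0.124) or 2 (0.0863) and without control replicate 1 (0.105) or 3 (0.0798). The MSRB1 call was lost without shRNA-143 replicate 1 (0.132), 2 (0.0598) or 3 (0.0676), without control replicate 1 (0.0513) or 2 (0.0813), and with scaling by library size, where the difference was 0.17 (adjusted p = 0.209). Scaling by library size also brought HSH2D (-0.67, adjusted p = 0.0356) and SPNS3 (-0.50, adjusted p = 0.0241) past the threshold. EEF1AKMT4 passed without shRNA-146 replicate 1 (adjusted p = 0.0210) and with median-of-ratios scaling (adjusted p = 0.0495).

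**Figure D4:**
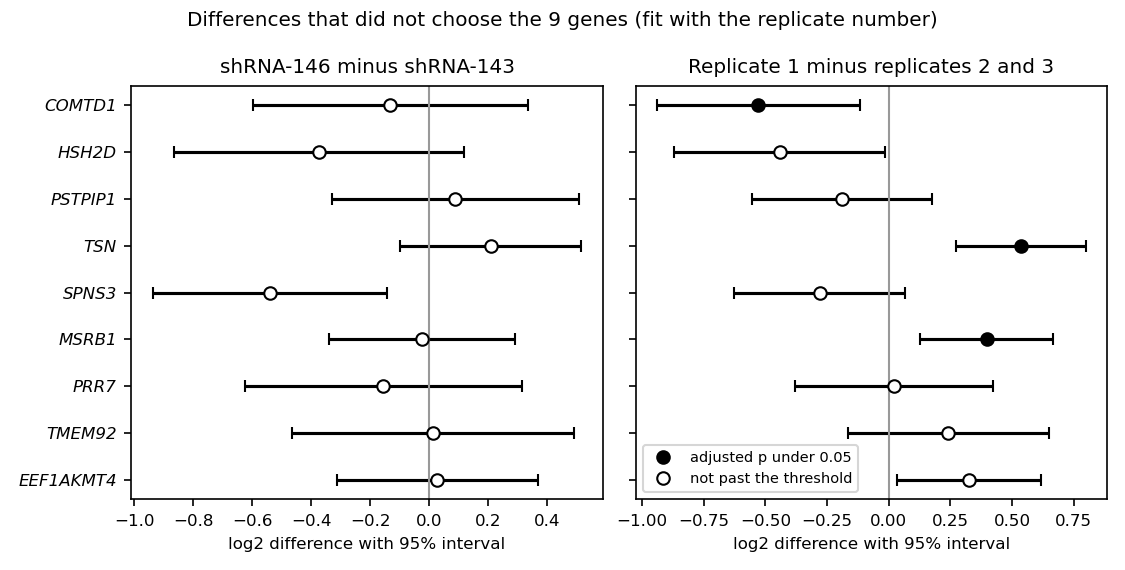
Log2 differences with 95% intervals, unadjusted for the number of genes, for the 9 genes in the fit with the replicate number: shRNA-146 minus shRNA-143 on the left, replicate 1 minus replicates 2 and 3 on the right, filled where the adjusted p was under 0.05. SPNS3 has the only left-hand interval clear of 0 (-0.94 to -0.14) with an unfilled point, while TSN, MSRB1 and COMTD1 are filled on the right.

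The choice did not name length, GC content or level, and the 9 genes varied in them. Their median exonic length was 2684 bases against 4550 for all tested genes, their median transcript GC content 58.7% against 48.4%, and their median level 8.28 CPM against 13.0. All 9 were shorter than the median of all genes, from 1580 bases (COMTD1) to 4468 (PSTPIP1), whereas TSN had a GC content of only 41.9% and TSN and MSRB1 were among the most abundant genes, at 183 and 156 CPM on average. Length moved with the contrast over all genes, so a choice of genes that fell was not independent of length, and nothing is read from the shortness of the 9. In the fit with the block, the median log2 fold change of the mean of both shRNAs was -0.22 in the shortest of 5 equal length bins, then -0.11, 0.01, 0.08 and 0.19 in the longest. MSRB1, EEF1AKMT4, COMTD1 and PRR7 fell in the shortest bin, SPNS3, HSH2D and TMEM92 in the next and TSN and PSTPIP1 in the middle one. With a length correction in the fit the medians of the 9 were -1.16 with shRNA-143 and -1.23 with shRNA-146, given as a description. That correction came on top of TMM scaling and also removed the shift between libraries that genes of all lengths share. It thus took out that shift again, and the medians of all genes there were -0.09 and -0.12. The corrected medians of the 9 are therefore not on the same scale as those without the correction.

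The profile over the 9 libraries was also compared with that of every other gene, by the Pearson correlation of log2 CPM with the mean of the z-scores of the 9. The correlations are a description, since the libraries fall into shRNA and control groups. The 6 most alike were DLK2 (0.967), an EGF-repeat membrane protein, PNMA1 (0.954), a paraneoplastic antigen, DPH2 (0.949), an enzyme of diphthamide synthesis on elongation factor 2, the transcription factor KLF15 (0.947), the splicing factor subunit SF3B5 (0.947) and the antisense RNA PRKAG2-AS1 (0.946). The hundredth gene still had 0.876. The 9 genes had 0.840 (TSN) to 0.982 (PRR7) with a mean they are themselves part of. SF3B5 averaged 156 CPM with shRNA-143, 135 with shRNA-146 and 242 in control, and KLF15 averaged 1.43, 1.01 and 3.33 CPM in that order. DPH2 averaged 62.4, 63.8 and 78.3 CPM, PNMA1 44.0, 45.2 and 65.3, DLK2 1.38, 1.24 and 2.11, and PRKAG2-AS1 1.08, 1.02 and 1.77. All 6 had means below control with both shRNAs. They were picked for likeness to genes chosen because they fell, so nothing is read from this direction. DLK2, DPH2 and PRKAG2-AS1 have exons that overlap a gene on the opposite strand, so their counts are uncertain.

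The nearest tested genes on either side of the 9 came to 21 with the tested genes that overlap them, and their medians were -0.21 with shRNA-143 and -0.09 with shRNA-146 on the log2 scale. With the block 0 of 21 were called with shRNA-143 and 3 with shRNA-146, where 3.17% and 4.42% of all genes were called. SPNS2, the sphingosine-1-phosphate exporter 10630 bases beyond SPNS3 and of the same family, fell by 1.12 ± 0.25 (adjusted p = 0.0354). NDUFB10, a subunit of mitochondrial complex I near MSRB1, fell by 0.68 ± 0.17 (adjusted p = 0.0485), and TPM4, a tropomyosin near HSH2D, rose by 0.82 ± 0.12 (adjusted p = 0.00709). The TPM4 call was lost without control replicate 2 (adjusted p = 0.0735). The SPNS2 call held only without shRNA-143 replicate 1, shRNA-146 replicate 1 or shRNA-146 replicate 3, with adjusted p up to 0.153 otherwise, and that of NDUFB10 only without shRNA-143 replicate 1 or shRNA-146 replicate 2, with adjusted p up to 0.229 otherwise. Scaling by library size also ended the calls of SPNS2 (0.0742) and NDUFB10 (0.0798). Without the block 0 of the 21 were called, and an unadjusted p under 0.05 was reached by 1 with shRNA-143 (6.8% of all genes) and by 4 with shRNA-146 (8.81% of all genes). The genes nearest to the 9 did not pass: NIFK, 180 bases before the annotated span of TSN, had -0.51 with shRNA-143 and -0.11 with shRNA-146, and ALG3, 102 bases before EEF1AKMT4, had 0.03 and -0.19. The TSN span starts at 121737103, whereas the TSN promoter window printed above starts at 121755401, so NIFK is not next to that window.

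Partners and relatives of the 9 genes were listed to show how their pathways stood, 86 genes in 8 lists, of which 74 were tested. Averaged over both shRNAs and set against control, 6 passed with the block, 2 higher and 4 lower, where 5.74% of all genes passed. Without the block 0 passed (0.0334% of all genes), with 6 at an unadjusted p under 0.05 (9.34% of all genes), and DESeq2 called 1. The median over the 74 was -0.06, beside 0.01 over all genes tested. By construct with the block, 1 was higher and 1 lower with shRNA-143 and 1 was higher and 5 lower with shRNA-146.

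Among the 7 genes of eEF1A and its methyltransferases, 1 passed. EEF1AKMT1, which methylates another lysine of eEF1A than EEF1AKMT4 does, held 22.5, 15.1 and 15.7 CPM with shRNA-143, 22.8, 14.7 and 14.7 with shRNA-146, and 34.0, 24.1 and 32.9 in control. Both shRNA groups lay below control. EEF1AKMT1 fell by 0.80 ± 0.13 over both shRNAs (adjusted p = 0.00921), by 0.78 with shRNA-143 (adjusted p = 0.0245) and by 0.82 with shRNA-146 (adjusted p = 0.0178). The call over both was lost without control replicate 2 (adjusted p = 0.0806) or 3 (0.0964). The list's median was -0.26.

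Of the 6 translin and RNA interference genes, AGO1, an Argonaute that carries small RNAs, rose by 0.45 ± 0.11 (adjusted p = 0.0434). The AGO1 call held without shRNA-146 replicate 1 or 3, and was lost without any other library (adjusted p up to 0.213). AGO1 stood at 39.8, 60.0 and 59.2 CPM with shRNA-143, 45.6, 61.0 and 60.8 with shRNA-146, and 29.3, 42.3 and 48.4 in control. The groups overlapped, and within each replicate number both shRNA libraries were above control. TSNAX, the partner of translin, had -0.03 and did not pass.

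Of the 20 selenoproteins and genes of selenocysteine synthesis, 2 passed and both were lower. SELENOW, a small selenoprotein of the cytosol, fell by 0.57 ± 0.13 (adjusted p = 0.0339) and SEPHS2, the enzyme that makes the selenium donor, by 0.42 ± 0.10 (adjusted p = 0.0416). The SELENOW call was lost without shRNA-143 replicate 2 or 3 or any control library (adjusted p up to 0.247), and with scaling by library size (0.0524). The SEPHS2 call held only without shRNA-146 replicate 1 or 3, with adjusted p up to 0.218 otherwise, and was lost with scaling by library size (0.0687). SEPHS2 stood at 194, 141 and 134 CPM with shRNA-143, 159, 128 and 121 with shRNA-146, and 222, 175 and 184 in control. SELENOW held 110, 50.8 and 58.1 CPM with shRNA-143, 77.5, 52.2 and 46.8 with shRNA-146, and 125, 68.4 and 94.8 in control. Replicate 1 was the highest of each group for both. Libraries of both shRNAs overlapped control for SELENOW, and those of shRNA-143 did for SEPHS2. The list's median was -0.13. Of the 8 methionine sulfoxide reductases, MICAL enzymes and thioredoxin genes 0 passed, and MSRA, which acts on the other stereoisomer of methionine sulfoxide, had -0.08.

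Of the 10 genes of the spinster and lysophospholipid list, 8 were tested and 2 passed in opposite directions. S1PR3, a receptor for sphingosine-1-phosphate, held 22.0, 21.0 and 22.0 CPM with shRNA-143, 32.0, 23.7 and 21.3 with shRNA-146, and 13.5, 11.5 and 11.1 in control. Every shRNA library was above every control library. S1PR3 rose by 0.97 ± 0.14 over both shRNAs (adjusted p = 0.00574), by 0.86 with shRNA-143 (adjusted p = 0.0165) and by 1.08 with shRNA-146 (adjusted p = 0.00613), and the call over both was lost without control replicate 2 (adjusted p = 0.0785) or 3 (0.0575). SPNS2 stood at 4.20, 5.57 and 5.59 CPM with shRNA-143, 1.497, 4.98 and 4.68 with shRNA-146, and 5.60, 8.72 and 8.49 in control. Its shRNA-143 and shRNA-146 libraries lay below control, the highest by a narrow margin. SPNS2 fell by 0.83 ± 0.21 over both (adjusted p = 0.0435), a call lost without shRNA-143 replicate 2 or 3 or any control library (adjusted p up to 0.209) and with scaling by library size (0.0967). SPNS2 shares 139 exonic bases with MYBBP1A on the opposite strand, and AGO1 396 with AL139286.2 and TPM4 829 with AC008894.3 likewise, so these counts are uncertain.

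In the other 3 lists 0 genes passed when both shRNAs were averaged. PSTPIP1 partners and the pyrin inflammasome had 13 of 14 tested and a median of 0.02, and MEFV, which encodes pyrin, had 0.68 without passing (adjusted p = 0.0866). The SH2 and transmembrane lymphoid adaptors had 9 of 14 tested and a median of 0.25, and SH2D2A had -0.34. The O-methyltransferases had 4 of 8 tested and a median of -0.20. PTPN18, a phosphatase that PSTPIP1 binds, was the only gene of these lists called with a single construct, falling by 0.66 ± 0.15 with shRNA-146 (adjusted p = 0.0367). That call held only without shRNA-143 replicate 1, shRNA-146 replicate 1 or shRNA-146 replicate 3, with adjusted p up to 0.163 otherwise, and was lost with scaling by library size (0.0933).

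**Figure D5:**
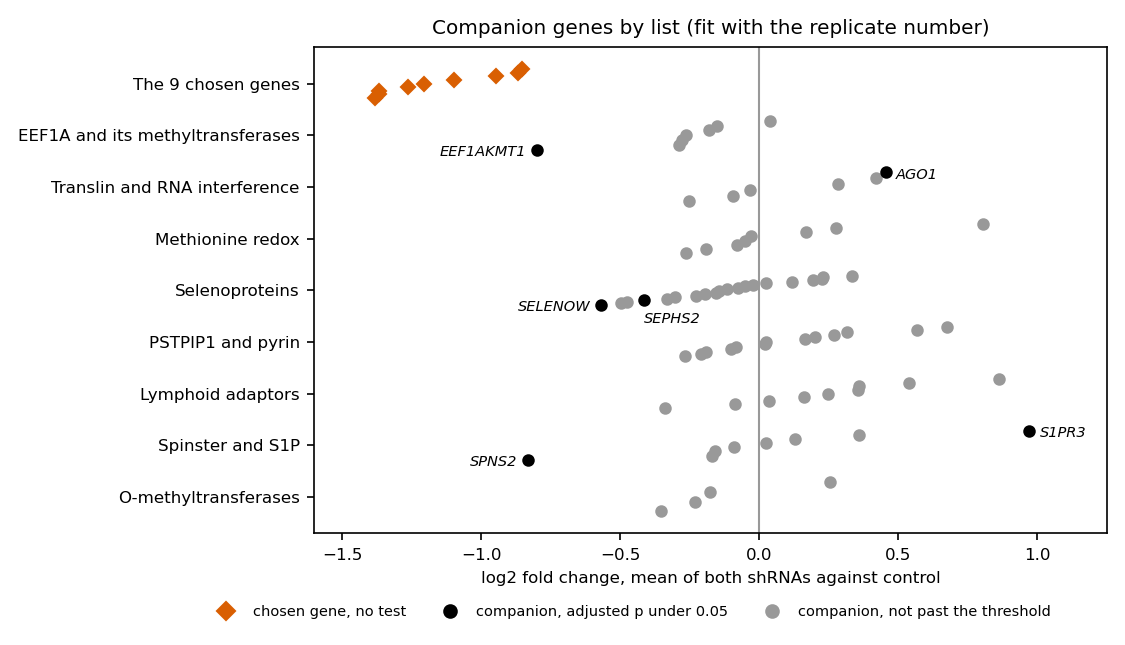
Log2 fold change of the mean of both shRNAs against control, in the fit with the replicate number, for the 9 chosen genes (diamonds, no test) and for the 74 tested companion genes by list (circles, TXNRD1 in 2 lists, black and named where the adjusted p was under 0.05). S1PR3 and AGO1 lie to the right of 0 and EEF1AKMT1, SPNS2, SELENOW and SEPHS2 to the left, while the other companions spread on both sides of 0.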

How the data were processed

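Polyadenylated RNA of THP-1 cells was sequenced in 9 libraries, 3 each for shRNA-143, shRNA-146 and the control shRNA. The authors deposited raw counts for 58735 gene identifiers, all found in GENCODE 29, and the coordinates in 25108 of 25108 listed genes equalled that annotation on hg38. Per the submitters' processing notes, fastp, STAR 2.5, featureCounts and DESeq2 were named, with roles and strand setting not given in the sources used here. The authors also deposited FPKM values per gene and, in their comparison tables, log2 fold changes with p-values, which were used only where named. Another 24 per-sample columns were not used here.

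Genes were kept by filterByExpr and scaled by TMM in edgeR 4.0.16 (R 4.3.3, limma 3.58.1). The quasi-likelihood test used all 9 libraries, 3 group means and 6 residual degrees of freedom, or 4 with the replicate number as a block, and p-values were adjusted over all 14975 genes by the Benjamini-Hochberg method, with a threshold of 0.05. The test was checked on simulated counts. For the difference between the constructs these held no effect of the replicate number. That check therefore does not decide between the fits with and without the block. DESeq2 1.42.0, limma-voom, other scalings, filters and left-out libraries were alternatives. Standard errors come from the fold change and its F statistic. CPM are after TMM scaling. Log2 CPM for profiles used a prior count of 2. Intervals in the text are 95% intervals per gene.

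The labels number the replicates without saying what a number shares. Deviations from group means correlated at 0.252 to 0.758 in the 9 pairs with the same number. In 18 pairs with different numbers the correlations ran from -0.678 to 0.535. Among the libraries of both other groups, 9 of 9 matched best with their own number, so the pairing comes from the data. Against control alone this held for replicates 1 and 2 of both shRNAs but not for replicate 3. There shRNA-143 replicate 3 correlated at 0.450 with control replicate 2 and 0.329 with control replicate 3, and shRNA-146 replicate 3 at 0.520 and 0.252. No library repeated another (chi-square per degree of freedom at least 20.3). Separate cultures are not stated for the replicates, and the p-values may then reflect only technical spread between the 9 libraries. Library totals of 40047459 to 44669709 counts leave counting error mainly for the genes near 2 CPM.

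The 9 genes, the companion lists and the motifs were chosen with earlier results of these data known. Besides the 9, the genes named are NFATC2, the genes that overlap or neighbour the 9, the 6 genes most like them in profile, and companions past the threshold with or without the block, or else the partner listed first. Values of some listed genes are not reported here. MEFV was added after its values were seen.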

Additional observations from a re-analysis of the deposited data

Results flagged for a closer look

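PTPN18, a tyrosine phosphatase that binds PSTPIP1, was the companion gene whose response differed between the constructs by a test of the difference itself. It stood at 21.6, 39.5 and 29.6 CPM in replicates 1 to 3 with shRNA-143, 10.6, 22.5 and 20.7 with shRNA-146, and 20.2, 31.9 and 30.5 in control. The shRNA-146 libraries were the lowest at each replicate number, although replicates 2 and 3 of shRNA-146 lay above replicate 1 of control. With the replicate block, shRNA-146 minus shRNA-143 was -0.78 ± 0.15 on the log2 scale (adjusted p = 0.0340, edgeR's quasi-likelihood test), and without the block it was -0.75 (adjusted p = 0.999991). The call held in 3 of 9 fits that left out a library and was lost without any of shRNA-143 replicates 1, 2 and 3, shRNA-146 replicate 2, and control replicates 2 and 3, with adjusted p from 0.0554 to 0.320. Scaling by library size gave -0.74 (adjusted p = 0.0835).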

How the results depend on the processing

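All 9 genes stayed lower with both shRNAs under every alternative run, a direction that their choice fixed, and 0 of the 9 differences between the constructs passed the threshold under the 17 alternatives run for them, which left out a library only without the block. The replicate block gave 474 genes called for shRNA-143 against 7 without it, 662 against 5 for shRNA-146, 179 against 7 for shRNA-146 against shRNA-143, and 6 against 0 for the companions. In the same order, the block with library size scaling gave 414, 835, 186 and 4, the block with gene length correction 376, 465, 129 and 4, and DESeq2 141, 157, 89 and 1. Library size scaling without the block gave 16 for shRNA-143 and 2 for shRNA-146, and median-of-ratios scaling and the summed count filter gave 3 each for shRNA-146. Leaving out each library without the block gave 1 to 28 for shRNA-143, 0 to 3 for shRNA-146, 0 to 8 for shRNA-146 against shRNA-143 and 0 to 0 for the companions. With the block, in an alternative added after seeing the data, these ranges were 55 to 2099, 27 to 1745, 31 to 344 and 0 to 15. The replicate 1 comparison, which exists only with the block, ran from 5659 to 7699 against 7429. Scaling by library size moved the median of all genes to 0.12 with shRNA-143 and 0.19 with shRNA-146, and with the block changed the calls to 267 higher and 147 lower (shRNA-143) and 679 higher and 156 lower (shRNA-146), from 239 and 235, and 369 and 293. The length correction moved the median of all genes to -0.09 and -0.12. It also removed, on top of TMM scaling, the shift between libraries that genes of all lengths share. This move, and the numbers of genes called with that correction, therefore do not reflect length alone.

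Differences between the constructs near 0 changed sign. MSRB1 gave 0.00491 with library size scaling and 0.0144 with that and the block. TMEM92 gave 0.0130 with the block, 0.0510 with library size scaling, 0.0535 with both, and 0.0314 with limma-voom. EEF1AKMT4 gave -0.00300 with median-of-ratios scaling, -0.00163 with the summed count filter and -0.00258 with DESeq2. With each library left out, COMTD1 ran from -0.29 to 0.16, PSTPIP1 from -0.10 to 0.29, TSN from -0.0710 to 0.42, HSH2D, which kept its sign, from -0.72 to -0.0944, MSRB1 from -0.17 to 0.17, TMEM92 from -0.15 to 0.23 and EEF1AKMT4 from -0.14 to 0.24. For replicate 1, PSTPIP1 ran from -0.36 to 0.0226 and PRR7 from -0.0873 to 0.18, and PRR7 gave -0.20 with library size scaling and -0.0141 with limma-voom. The cause was not tested. Depth limits the genes near 2 CPM, PRR7, TMEM92 and HSH2D, most.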
